A study of Mus musculus with 10 samples.

Results

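The clustered histone genes of the mouse were read in CD8 T cells taken from tumours. They were chosen by symbol, as the genes whose GENCODE M21 symbol starts with Hist1h, Hist2h, Hist3h or Hist4, and there were 70 of them among 54408 genes in the deposited tables. By class they were 6 H1, 20 H2A, 19 H2B, 12 H3 and 13 H4 genes. Chromosome 13 (cluster 1) held 56, chromosome 3 (cluster 2) 10, chromosome 11 (cluster 3) 3 and chromosome 6 (cluster 4) 1. The annotation calls 3 of them pseudogenes, namely Hist1h2aj, Hist1h2al and Hist3h2bb-ps.

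The study set NFAT5 KO against WT P14 CD8 T cells, with 5 libraries each. A transgenic receptor of P14 cells recognises the gp33 peptide. Per the labels, cells of both groups came from C57BL/6 mice with floxed Nfat5 alleles, and NFAT5 KO cells also carried 1 copy of Cre driven by the Cd4 promoter, while WT cells carried none. That promoter is active from the thymus onwards, so CD8 T cells that develop in these mice have met the recombinase, and the recipients keep their own NFAT5. Cells were activated in culture for 48 hours, 5 Mio were transferred into mice with a subcutaneous B16-gp33 melanoma, a mouse tumour line that makes gp33, and tumours were taken 7 days later to sort their CD8 T cells.

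Histone genes of these clusters are replication-dependent: their mRNA accumulates in S phase, when a cell must package newly made DNA, and is degraded when DNA synthesis stops. Core histones H2A, H2B, H3 and H4 form the nucleosome, and linker histones of class H1 bind the DNA between nucleosomes. Their mRNAs usually carry no poly(A) tail and end in a stem-loop that is bound by SLBP, although some members can also be made with a poly(A) tail in cells that have left the cell cycle. Activated CD8 T cells divide many times. Here the clustered histone genes together held 0.0134 to 0.0255% of the estimated counts in NFAT5 KO libraries and 0.0517 to 0.0839% in WT libraries.

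The stem-loop is what these mRNAs have in common beyond their names, and it is printed for members on which the results turn. The pattern searched was GGC, any base, CTTTT, any base, AG, any base, GCC, on the transcript strand, and it was found in GENCODE M21 transcripts of 42 of the 70 members and of 5 other genes, which is 0.00903% of the genes that are not members. Those 5 were Gm20634, Gm44648, H2afx, H2bfm and Trim17. Some other members have annotated transcripts that stop at the end of the coding sequence, so a stem-loop beyond it would be missed. The most frequent form, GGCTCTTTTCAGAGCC, was in 26 genes, and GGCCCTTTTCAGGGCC was in 7. The sequences below are from the transcript strand, with the stem-loop in capitals and the flanking bases in lower case.
Hist1h2ap: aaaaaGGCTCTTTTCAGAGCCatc
Hist1h2ao: aaaaaGGCTCTTTTCAGAGCCatcca
Hist1h2bm: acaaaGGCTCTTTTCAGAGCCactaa
Hist1h1c: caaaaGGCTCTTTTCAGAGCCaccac
Hist1h3c: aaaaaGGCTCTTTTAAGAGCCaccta
Hist1h4d: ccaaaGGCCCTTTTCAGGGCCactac
Hist1h1c holds the same 16 letters as Hist1h2ap, Hist1h2ao and Hist1h2bm, and Hist1h3c and Hist1h4d each hold another form.

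Promoters were read as the 250 bases before each RefSeq start on GRCm38.p6, and 61 members had an entry. TATAAA, on either strand, was found in 29 of the 61 (47.5%), against 12.4% of 32851 RefSeq promoters. CCAAT, on either strand, was found in 50 (82.0%), against 33.8%, and both were found in 24 (39.3%), against 4.4%. A match is a description of letters and not of binding. Both motifs are in capitals below, as ATTGG and TTTATA where they lie on the other strand. The promoters shown are those of Hist1h1b and Hist1h2bm, which fell, at chr13:21780626-21780875 (minus strand) and chr13:21721794-21722043 (plus strand), and of Hist1h1c, for which no difference passed the test, at chr13:23738557-23738806 (plus strand).
Hist1h1b: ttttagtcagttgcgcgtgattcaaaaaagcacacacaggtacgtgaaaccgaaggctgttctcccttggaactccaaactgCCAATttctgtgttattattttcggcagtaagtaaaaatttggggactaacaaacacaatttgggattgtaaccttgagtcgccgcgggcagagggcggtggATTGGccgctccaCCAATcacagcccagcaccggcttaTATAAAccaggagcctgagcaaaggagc
Hist1h2bm: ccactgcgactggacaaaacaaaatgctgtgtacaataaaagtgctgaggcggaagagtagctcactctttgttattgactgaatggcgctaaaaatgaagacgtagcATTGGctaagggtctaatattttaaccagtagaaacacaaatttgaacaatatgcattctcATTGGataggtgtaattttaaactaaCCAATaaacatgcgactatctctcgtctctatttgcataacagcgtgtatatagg
Hist1h1c: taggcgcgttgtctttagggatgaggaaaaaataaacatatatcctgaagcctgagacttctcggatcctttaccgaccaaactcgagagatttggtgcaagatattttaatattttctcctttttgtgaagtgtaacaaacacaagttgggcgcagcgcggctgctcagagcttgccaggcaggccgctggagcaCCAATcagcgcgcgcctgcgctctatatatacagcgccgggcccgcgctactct
CCAAT was in all 3, and TATAAA only in the first of them.

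The libraries held 22444310 to 32001285 estimated counts each. Whether 2 libraries ever share a mouse is not in the labels, and the p-values below reflect the spread among libraries, some of it possibly technical. Titles start with 678 (3 NFAT5 KO, 2 WT) or 679 (2 NFAT5 KO, 3 WT), a prefix of unstated meaning. Where values of single libraries are given, the NFAT5 KO order is 678_3, 678_5, 678_6, 679_2, 679_6 and the WT order is 678_2, 678_4, 679_3, 679_4, 679_5. Nfat5 (ENSMUSG00000003847) stood at 12.2, 12.6, 11.6, 26.8 and 11.9 CPM in the NFAT5 KO libraries, against 18.02, 17.2, 18.3, 9.20 and 14.2 CPM in the WT libraries. NFAT5 KO library 679_2 had the highest Nfat5 level of the 10 libraries, and the log2 fold change was -0.04 (SE 0.27, edgeR adjusted p = 0.957). Floxed exons are not separated from the others in a gene total, so this value does not check the labels.

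The sum over all 70 members lay lower in NFAT5 KO than in WT cells. CPM scale the estimated counts to a TMM-adjusted library total, and levels below are in CPM unless TPM, which also divides by length, is named. The sum was 262, 138, 136, 152 and 177 CPM in the NFAT5 KO libraries, against 832, 613, 526, 824 and 508 CPM in the WT libraries. The highest NFAT5 KO library, 678_3, lay below the lowest WT library, so the groups did not overlap. Means were 173 ± 52.6 CPM in NFAT5 KO and 661 ± 158 CPM in WT cells (SD, n = 5 each), a log2 ratio of means of -1.93. Within the 678 libraries this ratio was -2.02 and within the 679 libraries -1.91. Because the samples are bulk, fewer cells that make histone mRNA and less of it per cell cannot be told apart.

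**Figure D1:**
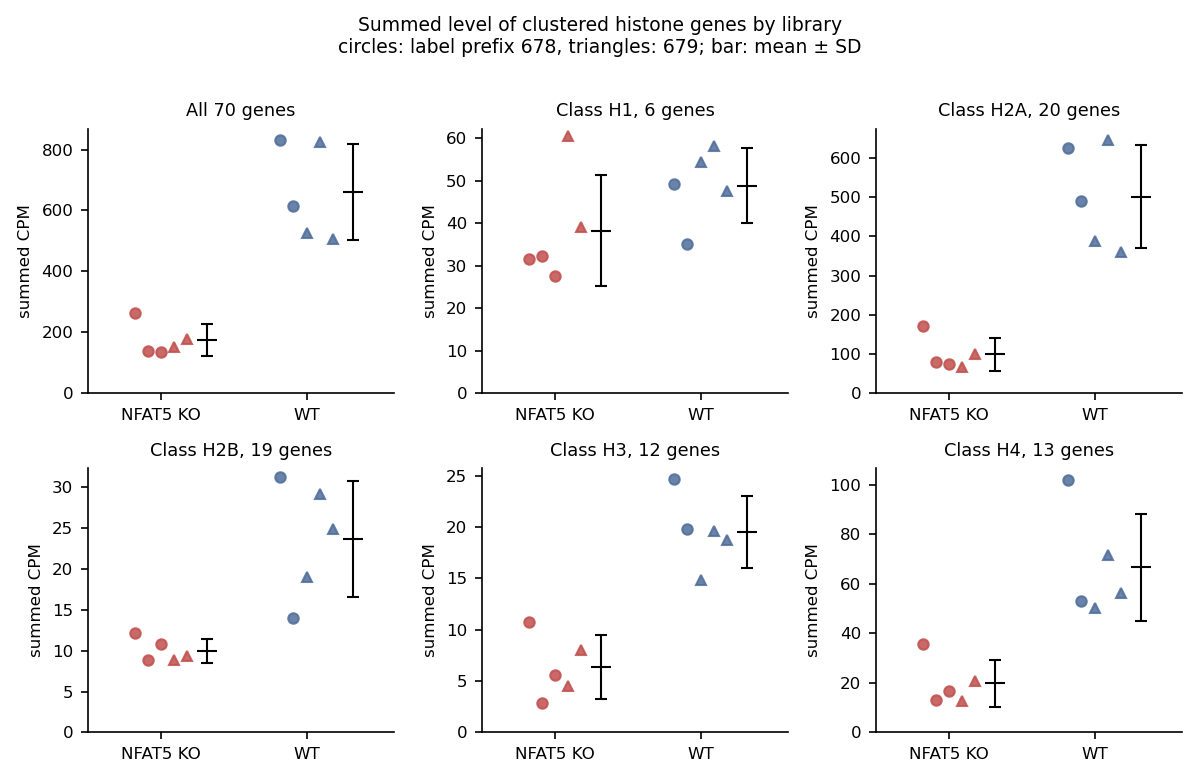
Summed CPM of the clustered histone genes (y axis, linear from 0) in each NFAT5 KO and WT library, for all 70 members and for each class. Points are libraries, and the bar is the mean ± SD. The NFAT5 KO points lie below the WT points in each panel but that of H1, where they overlap.

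Of the 70 members, 43 passed the filter on low counts and were tested, and 27 were not. With edgeR's quasi-likelihood test over all 13081 genes, 13 members fell in NFAT5 KO cells and 0 rose, while 5.63% of all genes tested fell, 3.38% rose and 9.01% did either. At an unadjusted p below 0.05, 22 members were lower and 1, Hist2h2aa1, was higher, against 3041 of all 13081 genes in either direction. The median log2 fold change was -1.58 over the 43 tested members and 0.02 over all genes tested. In 15 of the 43, every NFAT5 KO library lay below every WT library in CPM, against 6.41% of all genes tested, and in 0 every NFAT5 KO library lay above every WT library, against 3.92%. The DESeq2 Wald test, with 69 members in its fit, called 20 lower and 2034 genes in either direction, and limma-voom, on the same 43, called 18 lower and 1545 genes, against 1179 genes by edgeR. The 13 that fell by edgeR were Hist1h1b and Hist1h1e, Hist1h2ap, Hist1h2ae, Hist1h2ao, Hist1h2aj and Hist1h2ag, Hist1h2bj, Hist1h2bm and Hist1h2bk, Hist1h3i and Hist1h3c, and Hist1h4d. Hist1h2bm, among the 13, and other tested members such as Hist1h2ab and Hist1h3g had few counts in most NFAT5 KO libraries. They passed the filter on low counts mainly through the WT libraries. The counts and the median above include them. Leaving out each of the 10 libraries in turn gave 10 to 19 calls. Of the 13 genes, 10 kept their call in all 10 of these fits. Hist1h2ag kept it in 2, Hist1h2bk in 3 and Hist1h3c in 5, with adjusted p up to 0.129, 0.0789 and 0.0584. Each of these 3 lost it without WT 678_2 or 679_4 and without NFAT5 KO 678_6, 679_2 or 679_6.

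**Figure D2:**
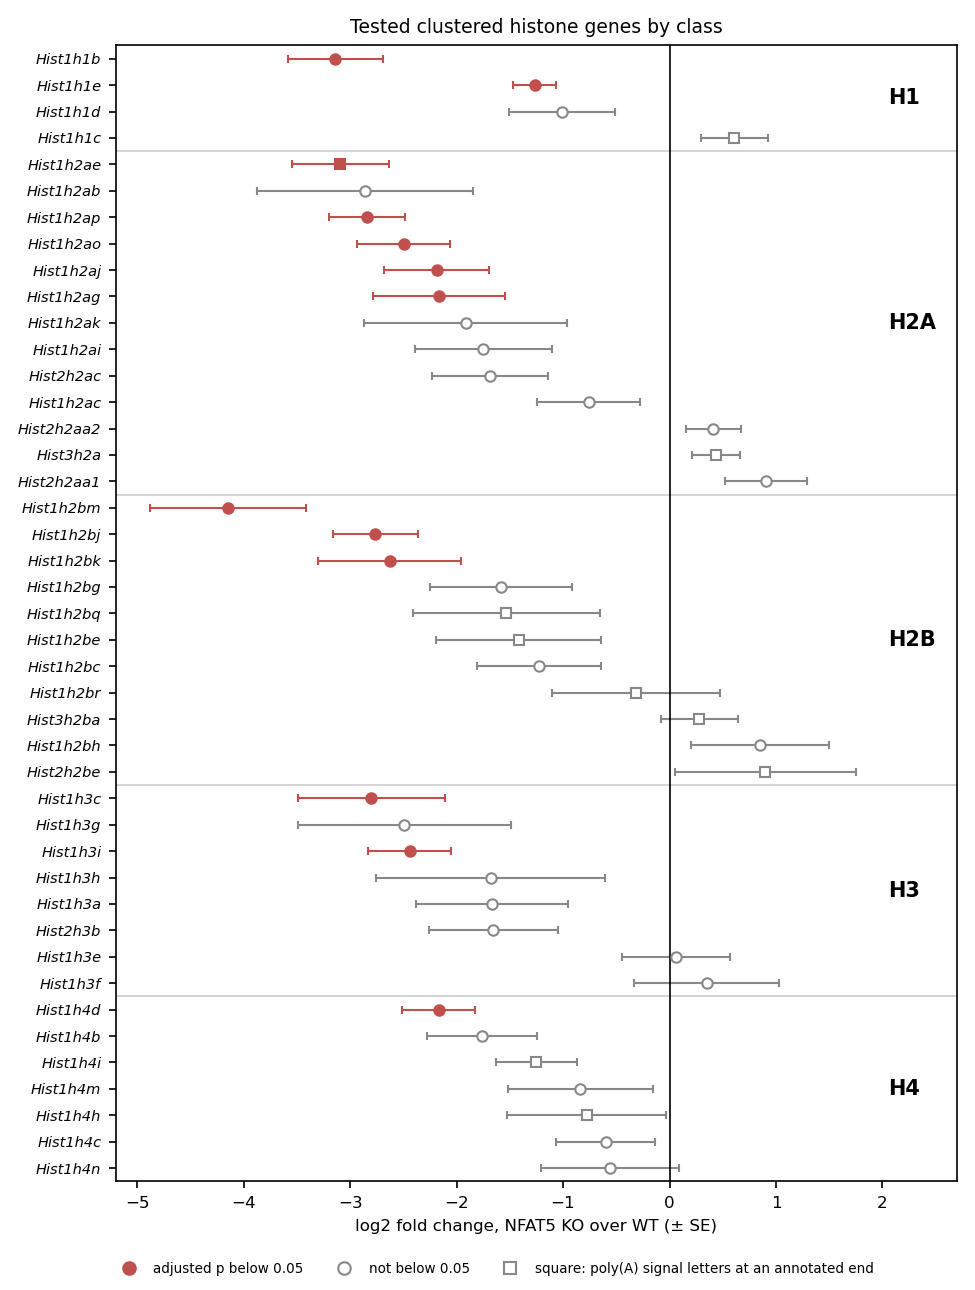
Log2 fold change (x axis, NFAT5 KO over WT) with its standard error for the 43 tested members, in rows by class. Red filled points had an edgeR adjusted p below 0.05, and squares mark members with poly(A) signal letters near an annotated end. All 13 red points lie left of 0, between -4.15 for Hist1h2bm and -1.27 for Hist1h1e.

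Class H1 had members on both sides. Hist1h1b, a linker histone gene (ENSMUSG00000058773, chromosome 13, 21779883 to 21780625, minus strand), stood at 1.14, 1.21, 0.986, 0.206 and 0.615 CPM in the NFAT5 KO libraries, against 10.04, 4.46, 8.15, 7.92 and 5.96 CPM in the WT libraries. Each NFAT5 KO library lay below each WT library. It fell by 3.14 on the log2 scale (SE 0.45, edgeR adjusted p = 0.00119). Hist1h1e, another linker histone gene, fell by 1.27 (SE 0.20, edgeR adjusted p = 0.00206) to 8.98 ± 2.43 CPM in NFAT5 KO cells, against 21.6 ± 2.91 CPM in WT cells (SD, n = 5 each), again without overlap.

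Hist1h1c, the third linker histone gene named, stood apart from these. It had 16.3, 23.4, 18.9, 50.6 and 27.2 CPM in the NFAT5 KO libraries, against 12.4, 12.2, 23.6, 24.4 and 16.7 CPM in the WT libraries. The groups overlapped, and NFAT5 KO 679_2, the library with the highest Nfat5 level, was the highest. Its log2 fold change was 0.61 (SE 0.31, edgeR adjusted p = 0.27) and 0.24 without that library. It passed the test with the label prefix as a term (0.76, adjusted p = 0.0423), while its adjusted p ran from 0.19 to 0.793 over the other alternatives. Hist1h1c made up 69.1 ± 11.6% of the H1 counts in NFAT5 KO and 36.1 ± 7.22% in WT cells (SD, n = 5 each). The H1 sum was 38.2 ± 13.1 CPM in NFAT5 KO and 48.8 ± 8.77 CPM in WT cells, with overlap, and without Hist1h1c it was 10.9 ± 2.72 CPM in NFAT5 KO and 30.96 ± 5.18 CPM in WT cells, without overlap. The 4th tested H1 gene, Hist1h1d, was not called, and neither Hist1h1a nor the testis gene Hist1h1t passed the filter.

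On average over each group, class H2A held most of the histone counts, and 1 gene most of those. In single libraries H2A held as little as 43.2% of them (NFAT5 KO 679_2), and Hist1h2ap as little as 44.1% of the H2A counts (NFAT5 KO 678_5). Hist1h2ap (ENSMUSG00000094777, chromosome 13, 21833026 to 21833507, minus strand) encodes a core histone H2A and had the highest mean TPM of the 70 members. It stood at 124.5, 35.5, 39.2, 34.7 and 64.5 CPM in the NFAT5 KO libraries, against 533, 425, 330, 551 and 292.5 CPM in the WT libraries. The highest NFAT5 KO library, 678_3, had less than any WT library. Its level was 59.7 ± 38.3 CPM in NFAT5 KO and 427 ± 116 CPM in WT cells (SD, n = 5 each), and it fell by 2.84 on the log2 scale (SE 0.36, edgeR adjusted p = 0.000597). It took 32.2 ± 9.90% of the counts of all clustered histone genes in NFAT5 KO cells and 64.2 ± 4.46% in WT cells.

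Reads of H2A genes are hard to place, since these genes are near copies of each other. Of the 31-base words in Hist1h2ap, 93.4% are also in Hist1h2ao and 73.5% in Hist1h2ag, and 6.6% are in no other gene. Over the 70 members the median share of words found in no other gene was 41.3%, and in 41 members it was under 50%. Values of single H2A genes therefore rest on how the authors' model shared reads, whereas a class sum does not depend on how reads were split within that class. It still depends on how reads were shared with genes outside the class, since 54 of the 70 members share such a word with a gene that is no member, and 43.6% of the words of Hist1h2ap are in one. The H2A sum was 98.7 ± 43.0 CPM in NFAT5 KO and 502 ± 131 CPM in WT cells (SD, n = 5 each), a log2 ratio of -2.35. Without Hist1h2ap it was 39.1 ± 6.98 CPM in NFAT5 KO and 75.4 ± 16.5 CPM in WT cells, a log2 ratio of -0.95, and neither sum overlapped between the groups. An exon of another annotated gene overlaps 26 members, on the opposite strand for 23, Hist1h2ap with Gm44466 among them. The strand setting of the counting is not given in the sources used here, so reads of such partners cannot be told apart.

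Of 13 tested H2A genes, 5 fell, 8 were not called and 10 had a log2 fold change below 0. Hist1h2ao stood at 5.83, 1.245, 3.36, 1.199 and 1.715 CPM in the NFAT5 KO libraries, against 14.55, 11.2, 11.2, 21.95 and 16.1 CPM in the WT libraries. It fell by 2.50 on the log2 scale (SE 0.44, edgeR adjusted p = 0.00372), without overlap. Hist1h2ae fell by 3.09 (SE 0.45, edgeR adjusted p = 0.00134) to 1.66 ± 0.87 CPM in NFAT5 KO cells, against 14.1 ± 4.95 CPM in WT cells (SD, n = 5 each). Hist1h2aj, annotated as an unprocessed pseudogene, and Hist1h2ag fell by 2.19 (SE 0.49) and 2.16 (SE 0.62), with edgeR adjusted p of 0.0153 and 0.0484. Both are outside the rule for named genes and were chosen after their values were seen. The same holds for Hist2h2aa1, Hist3h2a, Hist1h2bg, Hist1h2br and the untested genes named here. The libraries of Hist1h2ag overlapped between the groups.

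In class H2A, 3 genes lay on the other side of 0 without passing the test, and all 3 are outside cluster 1. Hist2h2aa2 was at 9.62, 10.4, 7.44, 7.36 and 7.185 CPM in the NFAT5 KO libraries, against 3.77, 6.54, 6.18, 5.80 and 9.28 CPM in the WT libraries. The groups overlapped through WT 679_5, and the log2 fold change was 0.41 (SE 0.26, edgeR adjusted p = 0.366). None of its 31-base words is unique to it, and 89.6% of those of Hist2h2aa1 are in another member. The values of Hist2h2aa1 and Hist2h2aa2 may therefore not be separate. For Hist2h2aa1 edgeR gave 0.90 (SE 0.38, adjusted p = 0.175) and for Hist3h2a 0.44 (SE 0.22, adjusted p = 0.271) as log2 fold changes, and in both the groups overlapped.

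**Figure D3:**
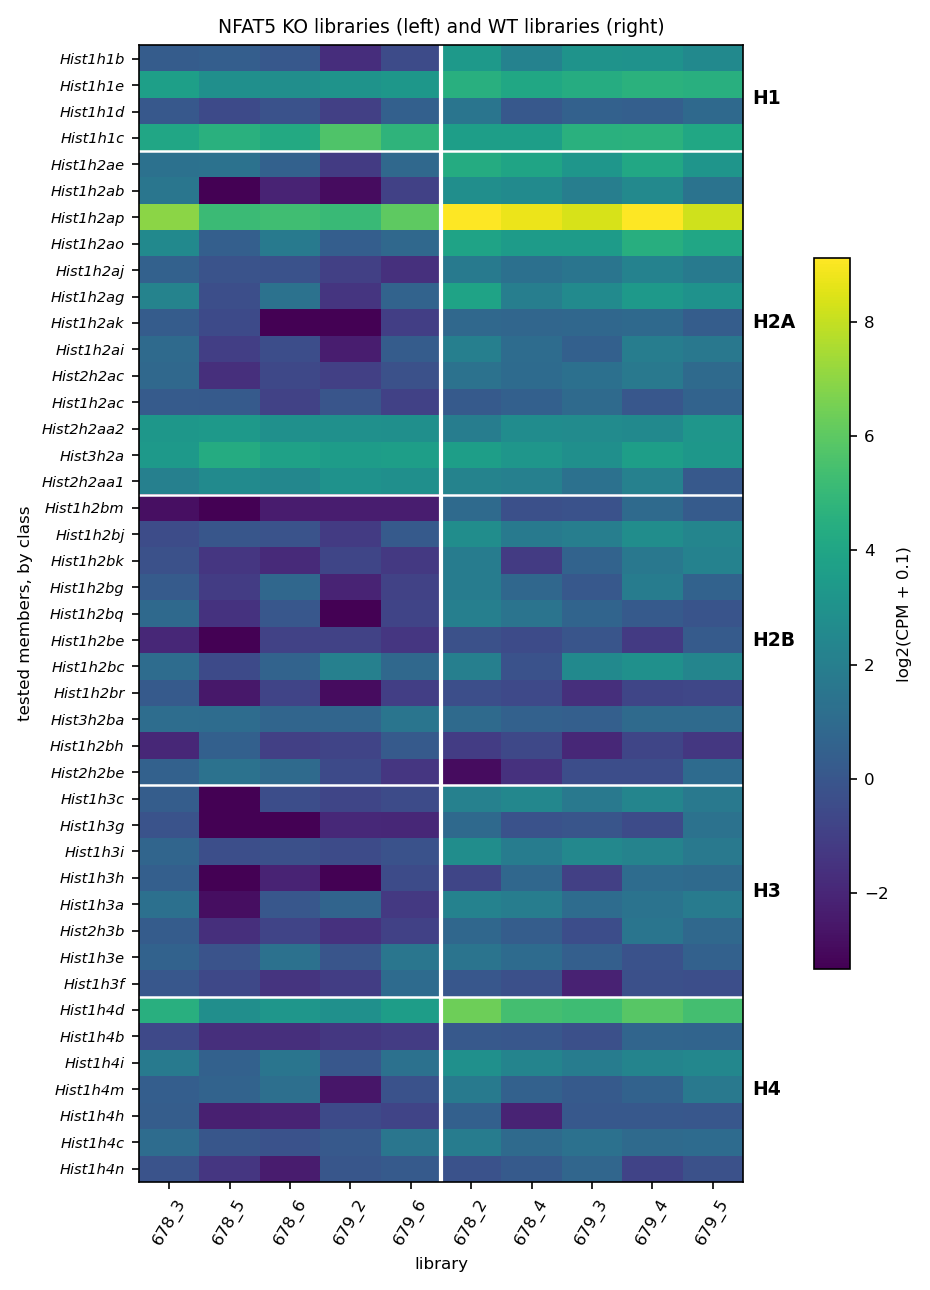
Level of the 43 tested members in each library, as log2(CPM + 0.1) in colour, with the 5 NFAT5 KO libraries on the left and the 5 WT libraries on the right and rows by class. Hist1h2ap is the brightest row, at 34.7 to 124.5 CPM in NFAT5 KO and 292.5 to 551 CPM in WT libraries, and the rows of Hist1h1c and Hist2h2aa2 are not darker on the left.

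The sum over class H2B was 10 ± 1.45 CPM in NFAT5 KO and 23.7 ± 7.14 CPM in WT cells (SD, n = 5 each), a log2 ratio of -1.24 without overlap. Of 11 tested genes 3 fell and 8 were not called. Hist1h2bj, the H2B gene with the highest mean TPM, stood at 0.652, 0.916, 0.807, 0.343 and 1.04 CPM in the NFAT5 KO libraries, against 6.77, 3.30, 3.82, 6.78 and 4.91 CPM in the WT libraries. Every NFAT5 KO library was below every WT library, and the gene fell by 2.76 on the log2 scale (SE 0.40, edgeR adjusted p = 0.00123).

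Hist1h2bm had the lowest fold change of the 43, on few reads. It had 1, 0, 2, 3 and 3 estimated counts in the NFAT5 KO libraries, against 55, 21, 24, 55 and 25 in the WT libraries. Its passing the filter on low counts thus rested on the WT libraries. It fell by 4.15 on the log2 scale (SE 0.74, edgeR adjusted p = 0.00391), a size that depends on the few reads in NFAT5 KO libraries. Hist1h2bk fell by 2.63 (SE 0.67, edgeR adjusted p = 0.0292), with WT 678_4 inside the range of the NFAT5 KO libraries. Hist1h2bq had a log2 fold change of -1.53 (SE 0.88, edgeR adjusted p = 0.326) and overlapped. Of the 31-base words in its transcript annotated for nonsense-mediated decay, 1.8% are in no other gene. In its protein-coding transcripts this share is 0.0%.

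In class H3 the sum was 6.36 ± 3.10 CPM in NFAT5 KO and 19.5 ± 3.48 CPM in WT cells (SD, n = 5 each), a log2 ratio of -1.62 without overlap. Of 8 tested genes 2 fell and 6 were not called. Hist1h3i stood at 1.55, 0.696, 0.717, 0.617 and 0.777 CPM in the NFAT5 KO libraries, against 6.71, 3.65, 5.45, 4.69 and 3.20 CPM in the WT libraries. It fell by 2.44 on the log2 scale (SE 0.39, edgeR adjusted p = 0.00212), with 678_3 the highest NFAT5 KO library but below each WT library. Hist1h3c fell by 2.80 (SE 0.69, edgeR adjusted p = 0.0251), to 0.597 ± 0.422 CPM in NFAT5 KO cells, against 4.16 ± 0.985 CPM in WT cells (SD, n = 5 each). Hist1h3a had a log2 fold change of -1.67 (SE 0.71, edgeR adjusted p = 0.18) and overlapped.

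By counts, class H4 was dominated by Hist1h4d (ENSMUSG00000061482, chromosome 13, 23581598 to 23582735, plus strand). It held 57.8 ± 4.3% of the H4 counts in NFAT5 KO and 78.5 ± 3.7% in WT cells (SD, n = 5 each). In TPM, its mean was 12.6 of 36.2 in NFAT5 KO and 56.2 of 103.5 in WT cells. It stood at 22.9, 7.07, 9.10, 7.33 and 12.2 CPM in the NFAT5 KO libraries, against 82.2, 42.1, 38.0, 59.3 and 41.6 CPM in the WT libraries. Every NFAT5 KO library was below every WT library, and it fell by 2.17 on the log2 scale (SE 0.34, edgeR adjusted p = 0.00194). No other of the 7 tested H4 genes was called, although all 7 had a log2 fold change below 0. Hist1h4b had -1.76 (SE 0.52, adjusted p = 0.0527) and Hist1h4i -1.25 (SE 0.38, adjusted p = 0.0621) by edgeR, both without overlap, and Hist1h4m had -0.84 (SE 0.68, adjusted p = 0.504) with overlap. The H4 sum was 19.8 ± 9.44 CPM in NFAT5 KO and 66.6 ± 21.5 CPM in WT cells (SD, n = 5 each), a log2 ratio of -1.75, and without Hist1h4d it was 8.05 ± 2.91 CPM in NFAT5 KO and 14.0 ± 3.53 CPM in WT cells, a log2 ratio of -0.80 with overlap.

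The 27 members that did not pass the filter together held 3.54 ± 1.46 CPM in NFAT5 KO and 6.64 ± 3.03 CPM in WT cells (SD, n = 5 each), and the groups overlapped. Among them are Hist1h2aa, Hist1h2ba and Hist1h1t, which are known from testis. Hist2h3c1, which has no 31-base word of its own, was at 0 in all 10 libraries. Hist2h4 and Hist4h4, the H4 genes of clusters 2 and 4, averaged 0.643 ± 0.436 and 0.818 ± 1.14 CPM in NFAT5 KO cells, against 0.198 ± 0.319 and 0.231 ± 0.203 CPM in WT cells (SD, n = 5 each), with overlap in both. The NFAT5 KO mean of Hist4h4 rests on 678_3, at 2.85 CPM against 0.194 to 0.513 CPM in the other NFAT5 KO libraries. The WT mean of Hist2h4 rests on 678_2, at 0.7675 CPM against at most 0.0876 CPM in the other WT libraries.

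By position, the 13 genes that fell were all in cluster 1 on chromosome 13, where 36 of 56 members were tested. Of cluster 2, 5 of 10 members were tested and 0 called by edgeR. Of these 5, 3 had an unadjusted p below 0.05, against 3041 of all 13081 genes tested. The DESeq2 Wald test called Hist2h2ac and Hist2h3b of cluster 2 lower. Of cluster 3, 2 of 3 were tested, with 0 called and 0 at an unadjusted p below 0.05, and the member of cluster 4 was not tested. Within the clusters, 15 pairs of members start head to head within 1000 bases, 14 of them an H2A with an H2B gene, at 173 to 660 bases between the starts. In 2 such pairs both genes fell, Hist1h2bm with Hist1h2aj at 236 bases and Hist1h2bj with Hist1h2ag at 270 bases. In other pairs a single gene fell: Hist1h2ap beside Hist1h2br, Hist1h2ao beside Hist1h2bq and Hist1h2ae beside Hist1h2bg. By edgeR, Hist1h2br had -0.31 (SE 0.79, adjusted p = 0.859) and Hist1h2bg -1.58 (SE 0.67, adjusted p = 0.172). Hist1h2bk fell beside Hist1h2ah, which was not tested. In the remaining pairs no gene was called by edgeR. The promoter printed above for Hist1h2bm spans the whole stretch between its start and that of Hist1h2aj.

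The annotated 3′ ends differ among members. In 21 members every annotated transcript with the stem-loop ends within 100 bases of it, in 21 a transcript runs further, and in 28 no stem-loop is in the annotation. Where found, it starts 25 to 62 bases after the coding sequence. Some of the 28, such as Hist1h1b and Hist1h3i, have annotated transcripts that end 3 bases after it. These members therefore cannot be said to lack a stem-loop. Poly(A) signal letters (AATAAA or ATTAAA, transcript strand) were in the last 50 bases of an annotated transcript of 17 members. The 53 members without them summed to 121.5 ± 57.6 CPM in NFAT5 KO and 605 ± 150 CPM in WT cells (SD, n = 5 each), a log2 ratio of -2.32, or -1.53 without Hist1h2ap. The groups did not overlap in either sum. The 17 members with them summed to 43.2, 53.8, 43.5, 68.0 and 49.0 CPM in the NFAT5 KO libraries, against 63.0, 47.4, 51.1, 65.5 and 49.0 CPM in the WT libraries. Here the groups overlapped, and the log2 ratio of means was -0.10. That value rests on Hist1h1c, at 27.25 of the 51.5 CPM in NFAT5 KO and 17.9 of the 55.2 CPM in WT cells. Without Hist1h1c, an alternative chosen after seeing the data, the other 16 summed to 24.3 ± 4.97 CPM in NFAT5 KO and 37.3 ± 8.91 CPM in WT cells (SD, n = 5 each), a log2 ratio of -0.62, still with overlap. In TPM, which weights short transcripts more, the 17 summed to 62.6 ± 8.27 in NFAT5 KO and 110 ± 23.6 in WT cells, a log2 ratio of -0.81 without overlap. Of the 33 tested members without the signal letters 12 fell, and of the 10 with them 1 fell, Hist1h2ae. Whether the 2 sets differ was not tested. The labels name total RNA and a Nextera XT preparation, and whether RNA with a poly(A) tail was selected is not given in them.

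**Figure D4:**
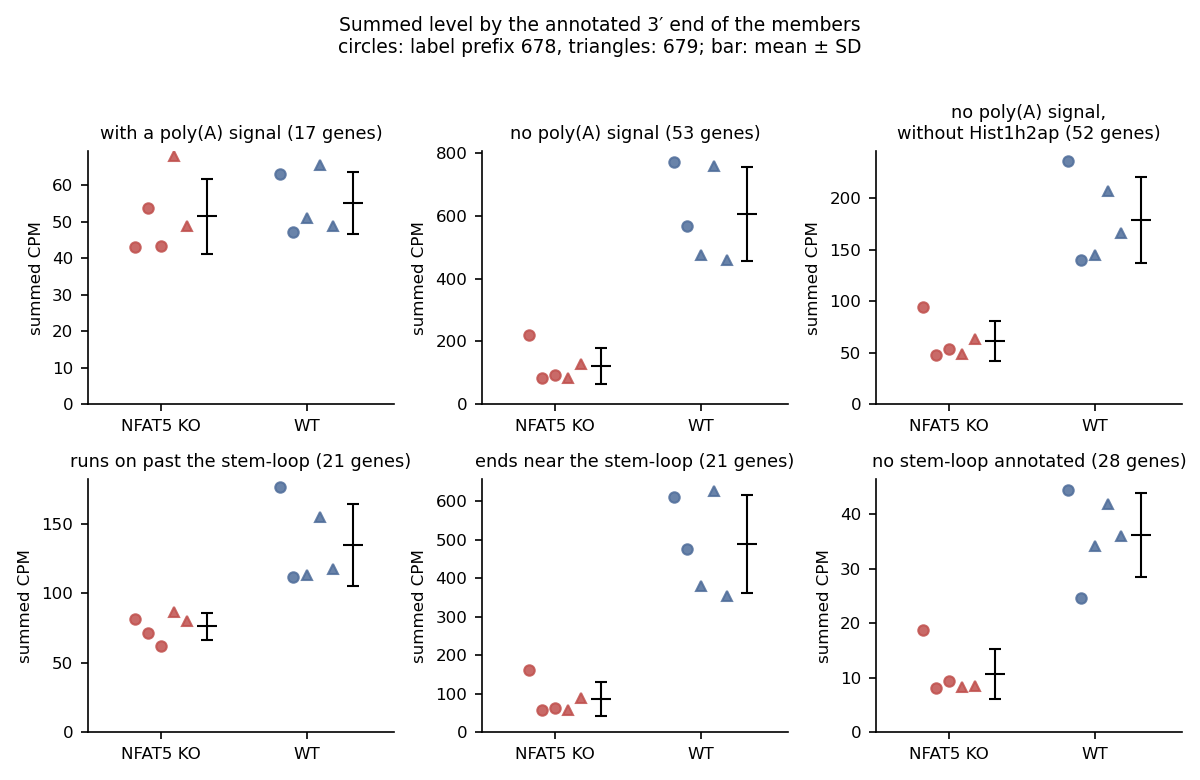
Summed CPM (y axis, linear from 0) of members grouped by their annotated 3′ end, in each NFAT5 KO and WT library, with the mean ± SD as a bar. The sum over the 17 members with poly(A) signal letters overlaps between the groups, with log2 ratio -0.10 (-0.62 without Hist1h1c), and the other panels show the NFAT5 KO points below the WT points. Some members with no stem-loop annotated have transcripts that stop at the end of the coding sequence, short of where it would lie.

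RNAs listed as lacking a classical poly(A) tail, in all or some of their transcripts, were read for comparison. A gene total does not separate transcripts with such a tail from those without. The 8 symbols listed matched 9 genes, of which 3 were at 0 in all libraries and 4 were tested. Of these 4, 1 rose, Malat1, by 0.90 on the log2 scale (SE 0.18, edgeR adjusted p = 0.00772), and 0 fell. Of all genes tested, 3.38% rose and 5.63% fell. The summed level of the 9 genes was 262.8 ± 67.55 CPM in NFAT5 KO and 142.5 ± 29.09 CPM in WT cells (SD, n = 5 each). Every NFAT5 KO library lay above every WT library in this sum and in the mean log2 CPM of the list. On the log2 scale Neat1 stood at 0.79 (SE 0.37, edgeR adjusted p = 0.219) and Rn7sk at 0.47 (SE 0.30, edgeR adjusted p = 0.391), and Rpph1 stood at -0.22 (SE 0.58, edgeR adjusted p = 0.87), none past the threshold. Of 15 tested mitochondrial genes 0 were called, and the 4 with the smallest p, mt-Nd1, mt-Rnr1, mt-Rnr2 and mt-Nd2, had log2 fold changes of 0.32 to 0.48.

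Histone variants that are made outside S phase as well were lower in part. Of 12 genes, 9 were tested, 5 fell and 0 rose, with a median log2 fold change of -0.90. Cenpa, the centromeric H3 variant, fell by 1.41 (SE 0.17, edgeR adjusted p = 0.000425) to 65.0 ± 11.8 CPM in NFAT5 KO cells, against 173 ± 38.8 CPM in WT cells (SD, n = 5 each). H2afz and H2afv, which encode H2A.Z proteins, fell by 1.09 (SE 0.16) and 1.02 (SE 0.16), and H2afx, whose transcript also holds the stem-loop letters, by 0.90 (SE 0.14), with edgeR adjusted p of 0.0012, 0.00214 and 0.00157. The 5th was the linker variant H1f0.

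Of 16 genes that act in histone gene transcription or 3′ end processing, all were tested, 5 fell and 0 rose, and the median log2 fold change was -0.11. Slbp, which encodes the stem-loop binding protein, fell by 0.67 (SE 0.12, edgeR adjusted p = 0.00522) to 113 ± 9.995 CPM in NFAT5 KO cells, against 180 ± 33.6 CPM in WT cells (SD, n = 5 each). The cyclin E genes Ccne1 and Ccne2 fell by 0.94 (SE 0.18) and 1.47 (SE 0.32) and Cdk2, their kinase, by 0.99 (SE 0.21), with edgeR adjusted p of 0.0069, 0.0128 and 0.0101. Npat, the coactivator of histone genes, had a log2 fold change of -0.30 (adjusted p = 0.161) and Lsm10, of the U7 particle that cuts the 3′ end, of 0.00 (adjusted p = 0.993).

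Of 22 histone chaperones and importers, all were tested, 8 fell and 0 rose, with a median log2 fold change of -0.26. Asf1b, an H3-H4 chaperone, fell by 2.31 (SE 0.21, edgeR adjusted p = 0.000117), and Chaf1a and Chaf1b, subunits of the replication-coupled assembly factor CAF-1, by 2.04 (SE 0.33) and 1.11 (SE 0.19). Hjurp, the chaperone of Cenpa, fell by 0.84 (SE 0.12, edgeR adjusted p = 0.00115). Hira and Daxx, which load H3.3 outside replication, had log2 fold changes of -0.12 (adjusted p = 0.776) and -0.17 (adjusted p = 0.429).

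The histone sum was set beside genes of DNA replication, library by library. All 16 S phase genes listed were tested and fell, with a median log2 fold change of -1.37. The 4 with the smallest p were Mcm2, Mcm4 and Mcm6, which encode helicase subunits, and Rrm2, for a ribonucleotide reductase subunit. Their summed level was 1883 ± 365 CPM in NFAT5 KO and 4401 ± 632 CPM in WT cells (SD, n = 5 each), a log2 ratio of -1.22. The 4 genes Mki67, Top2a, Cdk1 and Ccnb1, read in dividing cells of any type, also fell, with a summed level of 58.2 to 146 CPM in NFAT5 KO and 388 to 712 CPM in WT libraries. The clustered histone sum divided by the S phase sum was 0.111, 0.101, 0.0765, 0.0815 and 0.0868 in the NFAT5 KO libraries, against 0.167, 0.177, 0.122, 0.165 and 0.12 in the WT libraries. Each NFAT5 KO library had a lower quotient than each WT library. Without Hist1h2ap the quotient was 0.0611 ± 0.00828 in NFAT5 KO and 0.053 ± 0.00534 in WT cells, and the groups overlapped. These quotients are descriptions and carry no test.

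**Figure D5:**
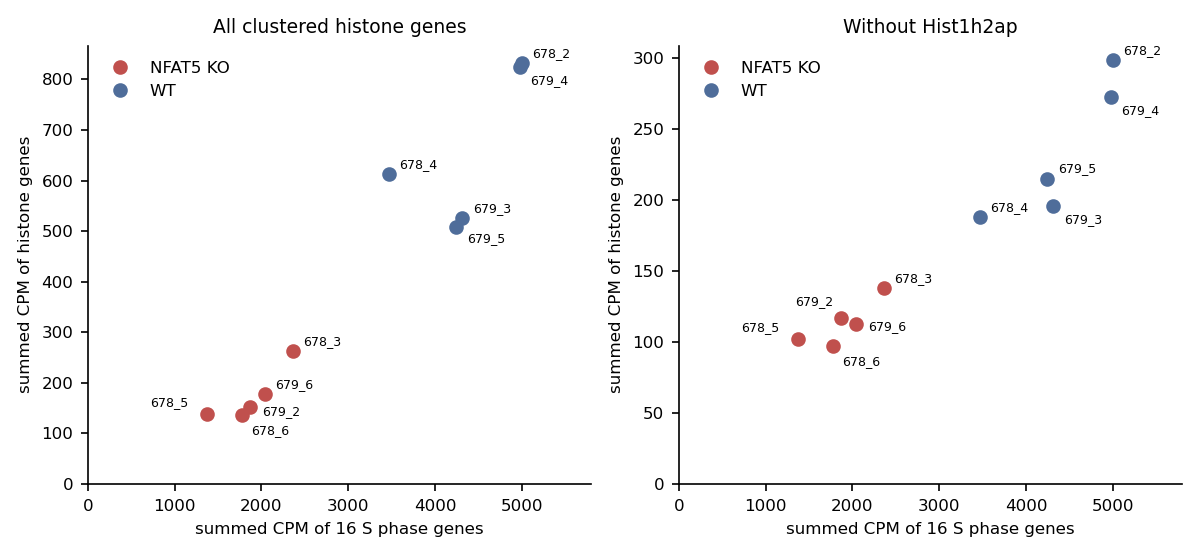
Summed CPM of the clustered histone genes (y axis) against the summed CPM of 16 S phase genes (x axis), both linear from 0, with 1 point per library, for all 70 members (left) and without Hist1h2ap (right). NFAT5 KO libraries lie at 1367 to 2363 CPM of S phase genes and WT libraries at 3466 to 4999 CPM.

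Markers of other cells were checked beside these results. T cell markers were high in all libraries, at 6371 to 6863 summed CPM in NFAT5 KO and 5880 to 6663 CPM in WT libraries. Their mean log2 CPM was 9.73 to 9.78 in NFAT5 KO and 9.50 to 9.67 in WT libraries, without overlap, and of 6 tested 1 rose, Trac, by 0.50 (SE 0.10, edgeR adjusted p = 0.00937). The 10 macrophage markers summed to 20.7 to 71.5 CPM in NFAT5 KO and 54.9 to 141 CPM in WT libraries, which overlapped. Of them 8 were tested and 1 fell, Adgre1, and the median log2 fold change was -1.95. With the mean of these markers as a term of the fit, 1 member was called lower, Hist1h2ap (log2 fold change -2.25, edgeR adjusted p = 0.049), with 11 members lower at an unadjusted p below 0.05. All 13 members that fell without the term still had a log2 fold change below 0, at most -0.82, and 11 of the 13 had an unadjusted p below 0.05. In that fit 45 of 13081 genes were called at all, and the share of all genes at the unadjusted threshold was not counted. The 7 melanoma markers summed to 0.92 to 3.79 CPM in NFAT5 KO and 1.19 to 4.27 CPM in WT libraries, with Sox10 at 0 throughout, and 11 members were called with their mean as a term. No macrophage marker was at 0 in all libraries of a group. The part of macrophage RNA in the histone results was not tested further.

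The label prefix was examined as well. Within the 679 libraries 6 of 49 tested members were called lower by edgeR. Within the 678 libraries 0 of 49 were called, with 10 lower and 2 higher at an unadjusted p below 0.05. The share of all genes at that unadjusted threshold was not counted within a prefix. All 13 members that fell had a log2 fold change below 0 within each prefix. For the interaction of genotype with prefix, 0 of 43 members were called and 2 had an unadjusted p below 0.05, against 0 and 377 (2.88%) of all 13081 genes. Without NFAT5 KO 679_2, the library with the highest Nfat5 level, 10 members were called lower and 0 higher.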

How the data were processed

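RNA was sequenced from 5 NFAT5 KO and 5 WT libraries. Per the file headers, the authors deposited 1 table per library, whose 140919 transcripts each have an effective length, a TPM value and an estimated count. Salmon 0.14.1 is named as tool, with builds mm10 and GRCm38.p6, per the submitters' processing notes. For the annotation and strand setting the sources used here give nothing.

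Transcript IDs, versions dropped, were looked up in GENCODE M21 on GRCm38 (99.38% found), and a gene's count is the rounded sum of its estimated counts. The deposited TPM values were summed per gene. Genes kept by filterByExpr were scaled with TMM and tested with edgeR 4.0.16 (quasi-likelihood, robust, R 4.3.3), NFAT5 KO minus WT, adjusted by Benjamini-Hochberg over all 13081 genes at 0.05. SE is the size of the log2 fold change over the root of F. Sums over members carry no test. On data simulated for this comparison over 12681 genes, 42 of 96 genes changed by 1 on the log2 scale and 77 of 96 changed by 2 were called, with 4 of 12489 unchanged genes.

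In each class the text names the 3 tested members with the highest mean TPM, the 2 with the smallest p and any called higher, and of each other list the 4 with the smallest p. Any further gene was picked with its values in view. The members and lists were chosen with earlier results of these data known. Depth sets counting error only, and SD and SE also hold the spread between libraries. Chi-square tests set every 2 libraries of a group apart, so none was merged. Stem-loops were read from GENCODE M21 transcripts and promoters from RefSeq. Alternatives were no filter, library size alone, size factors of DESeq2 1.42.0, at least 5 CPM in at least 5 libraries, the DESeq2 Wald test, limma-voom (limma 3.58.1), the label prefix as a term, each prefix alone, an offset for transcript length, the macrophage or melanoma marker mean as a term, and leaving out each library.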

Additional observations from a re-analysis of the deposited data

Results flagged for a closer look

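Among 70 groups of 5 values, for the named members, Nfat5 and the sums over classes and lists, 2 had a library far from the others by Dixon's criterion, which chance alone meets in about 1 in 20 groups. Hist1h3i was at 1.55 CPM in NFAT5 KO library 678_3, against 0.617 to 0.777 CPM in the other 4 NFAT5 KO libraries, a gap of 0.828 of the whole range. The same library had the highest sum over all members among the NFAT5 KO libraries, and without it 19 members were called lower in place of 13. Nfat5 was at 26.8 CPM in NFAT5 KO library 679_2, against 11.6 to 12.6 CPM in the other 4 NFAT5 KO libraries, a gap of 0.934 of the range. That library also had the highest Hist1h1c level. No cause was tested for either.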

How the results depend on the processing

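DESeq2 size factors, library size alone, no filter, the length offset and limma-voom left 12 to 18 members lower. With at least 5 CPM in at least 5 libraries 8 members were tested and 5 called, and the DESeq2 Wald test called 20. Prefix 678 alone called 0 members and 0 genes, prefix 679 alone 6 members and 325 genes, and the macrophage term 1 member and 45 genes. The fit of a single prefix held fewer libraries, and no cause of these lower counts was tested. The DESeq2 Wald test called 2034 genes, against 1179 by edgeR. Leaving out 1 library gave 10 to 19 members and 696 (without WT 678_2) to 1276 genes. Hist1h1c was the 1 member called higher, with the prefix as a term. Log2 ratios of sums in TPM were -2.34 over all members and -1.65 for H2B. In CPM, without the member with the highest level, log2 ratios were -1.05 over all members, -1.50 for H1, -0.95 for H2A and -0.80 for H4. In CPM, leaving out 1 library gave -2.13 to -1.84 over all members. It gave -0.58 to -0.26 for H1 and -2.64 to -2.23 for H2A. It gave -1.38 to -1.12 for H2B, -1.90 to -1.44 for H3 and -2.08 to -1.55 for H4. No named member changed direction under any alternative that was run. Why 27 members had too few counts to be tested was not examined. Limma-voom called 1545 genes in all. No paired analysis was possible because the label numbers are not shared between the genotypes within a prefix.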
